A study of Zea mays with 96 samples.

Results

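Regulators of the storage program of maize (*Zea mays*) endosperm, beside *opaque2* (*o2*), were followed in 5 transcription factor genes: *pbf1* (Zm00001d005100), *nac128* (Zm00001d040189), *nac130* (Zm00001d008403), *o11* (Zm00001d003677), and *bzip22* (Zm00001d021191). They are known members of the storage program, were chosen with earlier results of these data known, and make up 5 of the 46430 genes in each count table. The samples were immature endosperms of 8 genotypes in the W22 inbred background at 8, 12, and 16 d after pollination (DAP), with 4 libraries per genotype and timepoint and 96 in all. The single mutants *nkd1*, *nkd2*, and *o2*, the double mutants *nkd1 o2*, *nkd2 o2*, and *nkd1 nkd2*, and the triple mutant *nkd1 nkd2 o2*, all homozygous, were set against WT. The alleles were *nkd1-Ds*, *nkd2-null*, and *o2*. All 8 genotypes, WT included, were derived from one cross of the *nkd1-Ds nkd2-null* double mutant with the *o2* mutant, so chromosome segments linked to a mutant allele may travel with it. For each library 3 endosperms of a single ear were pooled, and a group of 4 libraries stands for 4 independent ears. The plants descended from shared segregating ears and grew in a greenhouse or in a field. The paper does not give the site of each library, so site may differ between libraries or genotypes, and its part in the spread was not tested. A whole endosperm holds several cell types, and in such bulk samples fewer cells of a type and less RNA per cell cannot be told apart.

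The 5 factors act on the genes for zeins, the prolamin storage proteins of the starchy endosperm, and on genes for starch. PBF1 is a Dof-type zinc finger protein that binds the prolamin box of zein promoters and interacts with O2, a bZIP activator of zein genes. NAC128 and NAC130 are closely related NAC-domain proteins of the filling endosperm, needed for normal starch and protein content. O11 is a bHLH protein placed upstream of several storage regulators, O2 and PBF1 among them, and bZIP22 is a bZIP protein known for activating a γ-zein gene. NKD1 and NKD2 are INDETERMINATE-domain zinc finger proteins needed for aleurone cell identity and for grain filling.

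The libraries held 31327665 to 68052826 reads counted on genes (median 50009154). Levels are CPM, a gene's reads relative to the size of its library, after TMM scaling over the 96 libraries. They are not divided by gene length, so they are compared between genotypes and timepoints and never between genes. Changes are log2 fold changes (log2FC) estimated and tested by the quasi-likelihood method of edgeR, with P adjusted across every gene tested after Benjamini and Hochberg. A gene is said to rise or fall only at an adjusted P under 0.05, and a DEG also has a log2FC beyond ±1. A call held in every alternative where it passed that adjusted P under each other way of processing the counts and each set of libraries fitted. The DEG rule is a stricter call, counted apart from these alternatives. All 5 genes passed the low-count filter at every timepoint, with 392 counts in the lowest library, for *bzip22*, and 70344 in the highest, for *nac130*. The *o2* transcript was at most 1.05 CPM on average in the genotypes with mutant *o2*, and *nkd2* was at most 0.575 CPM in those with mutant *nkd2*. In *o2* at 12 DAP, *nkd1* was at 576 to 645 CPM and *nkd2* at 7.41 to 11.6 CPM, against 179 to 241 and 62.8 to 74.9 CPM in WT, so the *o2* genotypes also differed in the level of the intact NKD genes. The *nkd1* transcript was reduced but not lost in *nkd1*, at 80.5 ± 18.1 CPM at 12 DAP, against 201 ± 28.2 CPM in WT (SD, n = 4 each), and counts per gene cannot tell an intact transcript from one altered by the insertion. As markers of starchy endosperm, the 13 zein genes named in the study's module tables summed to 113 to 278 CPM in WT libraries at 8 DAP and 198697 to 214621 CPM at 16 DAP. Markers of other endosperm cell types were not analysed here, since their names could not be paired with identifiers.

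The 5 genes rose early and together in WT. Between 8 and 12 DAP all 5 rose, against 29.4% of all genes tested. *nac130* rose most, by 11.4-fold, to 949 ± 35.3 CPM at 12 DAP against 83.6 ± 21.2 CPM at 8 DAP (log2FC 3.51, SE 0.20, adjusted P = 7.78e-26). *nac128* rose 7.99-fold (log2FC 2.998, SE 0.19, adjusted P = 6.53e-24), and *pbf1* rose 3.23-fold (log2FC 1.69, SE 0.10, adjusted P = 2.55e-24). *bzip22* and *o11* rose by log2FC 0.80 and 0.69. The rises of the first 3 genes held in every alternative processing, whereas those of *bzip22* and *o11* were no longer called when libraries were scaled by their total counts alone (log2FC 0.11 and −0.0044). With that scaling the median of all genes was −0.74 in this comparison, against −0.041 with TMM. The early rise was also found in the mutants: *pbf1*, *nac128*, and *nac130* rose between 8 and 12 DAP in all 8 genotypes, *bzip22* in 7 (log2FC 0.17 in *o2* was not called), and *o11* in 3, namely *o2*, *nkd1 o2*, and WT. Of all genes, 23.0% to 28.3% rose in the 7 mutants over this interval. Between 12 and 16 DAP the levels of the 2 NAC genes and *o11* in WT did not change beyond the spread of the ears, with log2FC −0.16, −0.02, and 0.08. The small rise of *pbf1* (log2FC 0.27, adjusted P = 0.0309) and fall of *bzip22* (log2FC −0.29, adjusted P = 0.0364) were lost in all 4 and in 3 of the 4 fits made without one replicate of every group (log2FC 0.25 to 0.28 and −0.32 to −0.26).

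Timepoint, genotype, and ear carried different weights in the 5 genes. Of the variance of log2 CPM over the 96 libraries, timepoint held 81.5% in *pbf1*, 79.6% in *nac128*, and 82.2% in *nac130*, but 52.9% in *bzip22* and 24.3% in *o11*. Genotype averaged over time held 14.9% in *pbf1* and 27.5% in *o11*, against 2.48% in *nac128*. In *nac128* the genotype effect lay mostly in its interaction with time, which held 13.4%. The spread between libraries of a group held 24.1% in *o11* and at most 10.6% in the other 4 genes. The group means of *o11* spanned only 1.82-fold over the 24 groups, from 107 to 194 CPM, while those of *nac130* spanned 12.7-fold.

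**Figure D1:**
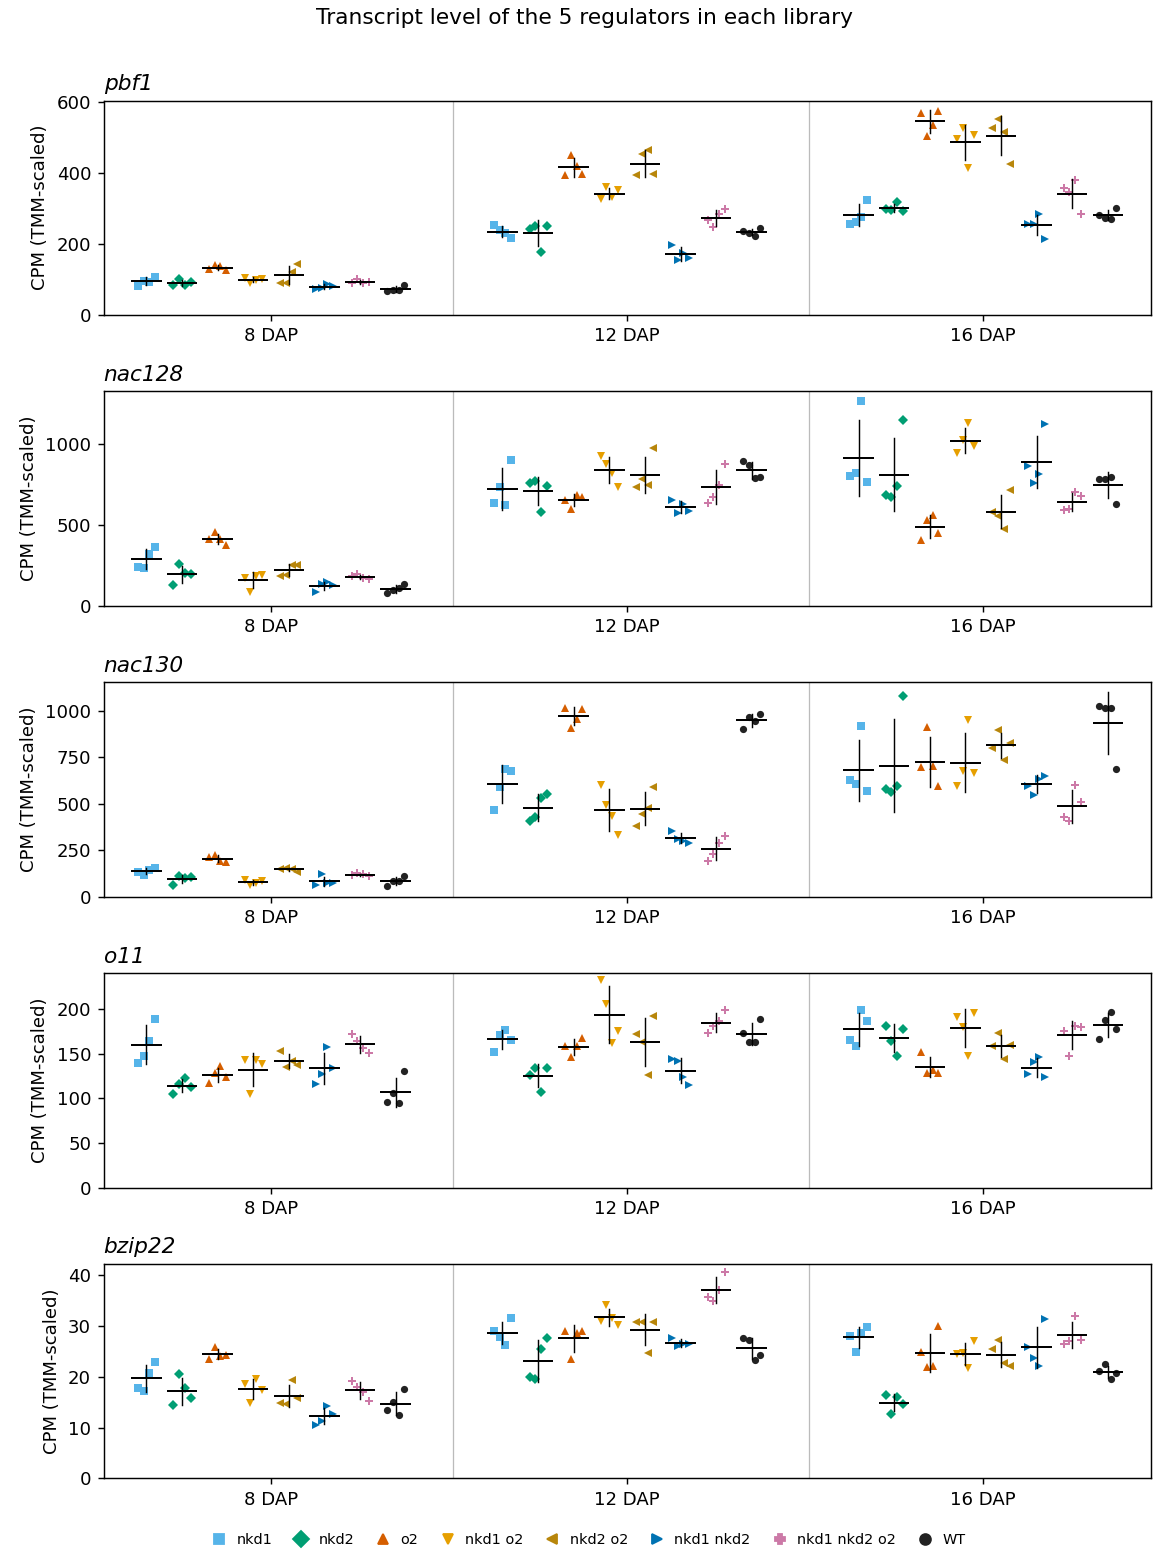
TMM-scaled CPM (vertical axis, starting at 0) of the 5 regulators in each of the 96 libraries, one panel per gene, by timepoint and genotype with WT at the right of each timepoint. Points are libraries, horizontal bars group means, and vertical bars ± SD (n = 4). *pbf1* is high in the 3 genotypes *o2*, *nkd1 o2*, and *nkd2 o2* at 12 and 16 DAP, and *nac130* at 12 DAP is highest in *o2* and WT.

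Each mutant was compared with WT at each timepoint, which asks how the 5 genes respond to the loss of NKD1, NKD2, and O2. These comparisons share the 4 WT libraries of a timepoint, so they are not independent of each other. At 8 DAP every call was a rise: 5 of the 5 genes rose in *nkd1* (10.0% of all genes rose), 1 in *nkd2* (7.68%), 4 in *o2* (18.3%), 1 in *nkd1 o2* (8.09%), 4 in *nkd2 o2* (6.60%), 1 in *nkd1 nkd2* (8.43%), and 3 in *nkd1 nkd2 o2* (16.4%). In the single mutants at 12 DAP there was 1 fall in *nkd1* (2.07% of all genes fell), 2 falls in *nkd2* (4.16%), and 1 rise and 1 fall in *o2* (14.0% rose and 14.6% fell). The double mutants had 2 rises and 1 fall in *nkd1 o2* (14.9% and 12.7%), 1 rise and 1 fall in *nkd2 o2* (14.2% and 13.0%), and 4 falls in *nkd1 nkd2* (16.2%). The triple mutant had 1 of each (23.1% and 24.3%). At 16 DAP *nkd1* had 1 rise (1.53%), *nkd2* 1 fall (7.04%), and *o2* 1 rise and 2 falls (16.9% and 16.7%). At that timepoint *nkd1 o2* had 2 rises (21.5%), *nkd2 o2* 1 rise (16.9%), *nkd1 nkd2* 1 rise and 2 falls (18.7% and 16.0%), and *nkd1 nkd2 o2* 2 rises and 1 fall (26.7% and 25.7%). Most changes were modest: 4 of the 35 values at 8 DAP and 3 of the 35 at 12 DAP passed the DEG rule, and at 16 DAP the log2FC values lay between −0.96 and 0.94. The DEGs were *nac128* and *nac130* in *o2* (15.7% of all genes were DEGs), *nac128* in *nkd1* (6.74%), and *nac128* in *nkd2 o2* (3.50%) at 8 DAP. At 12 DAP they were *nac130* in *nkd1 o2* (9.75%), *nkd1 nkd2* (11.7%), and *nkd1 nkd2 o2* (20.5%). Of all 49 calls, 19 were kept at an adjusted P under 0.05 in each of the 18 alternatives run, and 30 were lost in at least 1. The split of calls at the later timepoints depended on the scaling. With TMM, 5 calls were higher and 11 lower at 12 DAP, and 8 were higher and 6 lower at 16 DAP, whereas libraries scaled by their total counts alone gave 14 higher and 7 lower at 12 DAP and 16 higher and 1 lower at 16 DAP. With total counts the median of all genes was itself above 0, at 0.31 in *o2* against WT at 12 DAP and at 0.75 in *nkd1 nkd2 o2* against WT at 16 DAP. Zein reads took a smaller share of the library in these mutants than in WT, and their part in this shift was not tested.

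**Figure D2:**
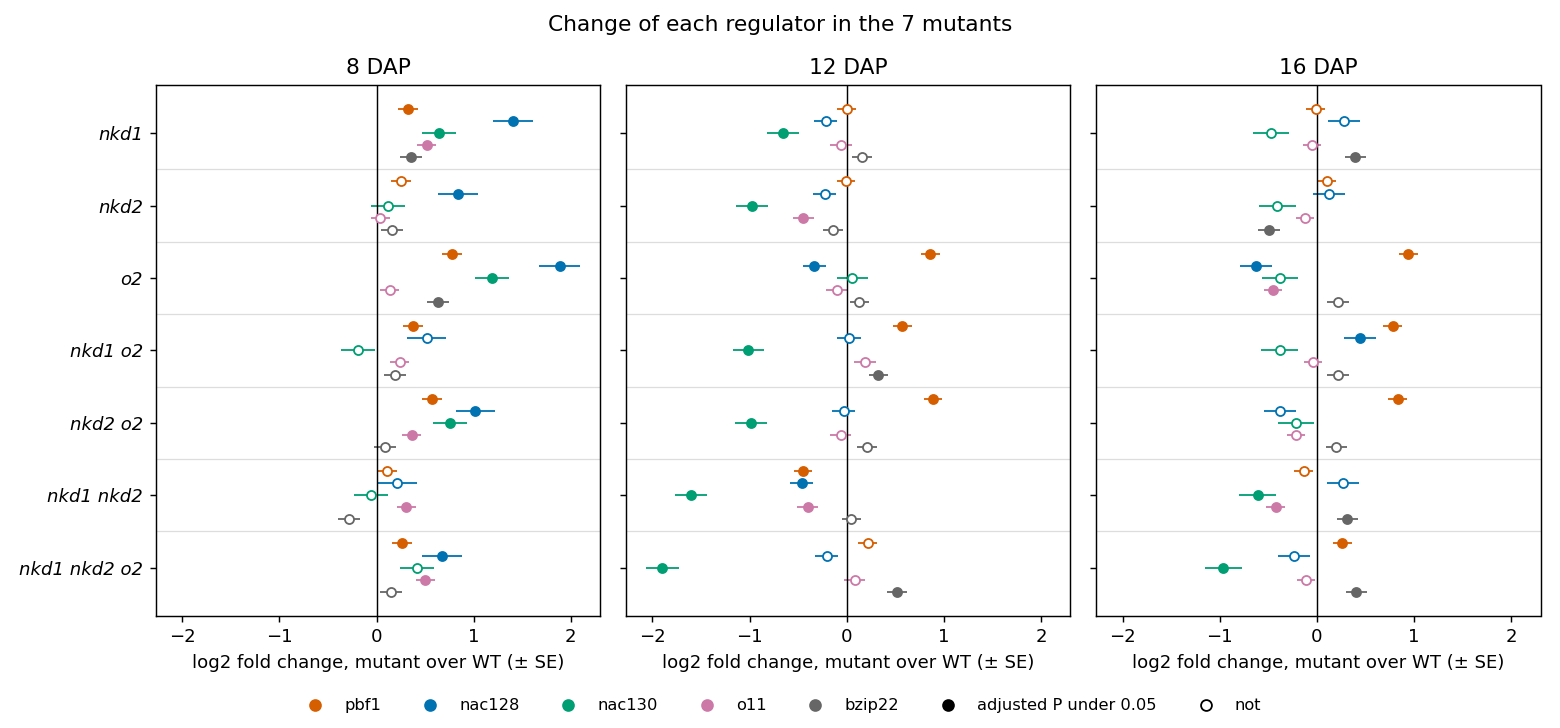
log2 fold change of each mutant over WT (horizontal axis) for the 5 regulators at 8, 12, and 16 DAP, one row of 5 genes per mutant. Points are edgeR estimates with bars of ± SE, filled where the adjusted P was under 0.05. All filled points at 8 DAP lie right of 0, and *nac130* lies left of 0 at 12 DAP in the 6 genotypes with a mutant *nkd* allele.

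The genotypes were also compared with each other, which asks what a further mutation adds. At 8 DAP 15 of the 18 calls of this kind were falls. At this timepoint against *o2*, 4 of the 5 genes fell in *nkd1 o2* (12.2% of all genes fell), 2 in *nkd2 o2* (12.2%), and 4 in the triple mutant (14.4%), where 1 rose (15.9%). At the same timepoint *nkd1 nkd2* had 3 falls against *nkd1* (9.40%) and 2 falls and 1 rise against *nkd2* (10.7% and 11.6%), and *nkd1 nkd2 o2* had 1 rise against *nkd1 nkd2* (6.16%), that of *bzip22* (log2FC 0.43), which was lost without replicate 1 or 2 of every genotype. At 12 DAP against *o2* there were 2 falls and 1 rise in *nkd1 o2* (9.08% of all genes fell, and 2690 of 24504 rose), 1 fall in *nkd2 o2* (8.17%), and 2 falls and 1 rise in the triple mutant (22.7% and 21.9%). *nkd1 nkd2* had 3 falls against *nkd1* (9.99%) and 2 against *nkd2* (17.8%), and the triple mutant had 3 rises against *nkd1 nkd2* (12.3%). Those 3 were *pbf1* (log2FC 0.66), *o11* (0.48), and *bzip22* (0.47), each kept in every alternative. By 16 DAP *nkd1 o2* had 2 rises against *o2* (15.1%), *nkd2 o2* had no call, and the triple mutant had 2 falls and 2 rises against *o2* (23.5% and 23.8%) and 2 rises and 1 fall against *nkd1 nkd2* (13.1% and 16.0%). *nkd1 nkd2* had 1 fall against *nkd1* (14.5%), that of *o11* (log2FC −0.38), and 1 fall and 1 rise against *nkd2* (17.8% and 20.3%), those of *o11* (−0.30) and *bzip22* (0.80). Of these 45 calls over the 3 timepoints, 28 held in each of the 9 alternatives.

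*pbf1*, the prolamin-box factor, was higher in *o2*, *nkd1 o2*, and *nkd2 o2* than in WT at each timepoint. At 12 DAP it was at 395, 450.5, 419 and 397 CPM in the 4 *o2* libraries, against 235, 231, 221 and 244 CPM in WT. All 4 *o2* libraries lay above all 4 WT libraries, and the rise was 1.82-fold (log2FC 0.86, SE 0.10, adjusted P = 7.76e-08). At 16 DAP the values were 568, 505, 534 and 575 CPM in *o2*, against 282, 272, 269.9 and 299 CPM in WT, a rise of 1.92-fold (log2FC 0.94, SE 0.10, adjusted P = 1.7e-08). The rise was already there at 8 DAP, at 133 ± 6.27 CPM against 72.02 ± 7.94 CPM in WT (log2FC 0.78, SE 0.10, adjusted P = 2.86e-06). It was also called in *nkd1 o2* (log2FC 0.57 at 12 DAP, 0.78 at 16 DAP) as well as in *nkd2 o2* (log2FC 0.89 and 0.83). These 7 calls held in every alternative. At 8 DAP the rises of log2FC 0.38 in *nkd1 o2* and 0.57 in *nkd2 o2* were less firm, since the first was lost without replicate 1 or 3 of every genotype and the second in a fit of the 2 genotypes alone.

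*pbf1* was lower in *nkd1 nkd2 o2* than in *o2* at each timepoint, and lower in *nkd1 nkd2* than in WT at 12 DAP. Against the *o2* single mutant, *nkd1 nkd2 o2* fell at all 3 timepoints, by log2FC −0.51, −0.64, and −0.68, in every alternative. At 16 DAP the triple mutant was at 357, 346, 379 and 284 CPM, against 505 to 575 CPM in *o2*, with no overlap (adjusted P = 1.67e-06). At 12 DAP the triple mutant was not called against WT, at 267, 246, 283 and 299 CPM against 221 to 244 CPM (log2FC 0.22, SE 0.10, adjusted P = 0.062), though it was without replicate 1 or 2 of the triple mutant (log2FC up to 0.31). With functional *o2*, *pbf1* fell in *nkd1 nkd2* at 12 DAP, to 196, 155, 175 and 159.7 CPM (log2FC −0.45, SE 0.10, adjusted P = 0.000658), also against *nkd1* (−0.45) and *nkd2* (−0.44). Scaled by total counts alone, the value against WT was −0.10 and was not called. *nkd1 nkd2* was not called against WT at 8 DAP (log2FC 0.11, adjusted P = 0.553) or at 16 DAP (log2FC −0.14, adjusted P = 0.288). Neither *nkd* single mutant differed from WT at 12 or 16 DAP beyond the spread of the ears, with log2FC from −0.01 to 0.10. The interaction of the *nkd1 nkd2* pair with *o2* was negative at 8 DAP (log2FC −0.60, adjusted P = 0.000731) and 16 DAP (−0.54, adjusted P = 0.00901), so the *o2* effect was smaller where both NKD genes were mutant. At 12 DAP this term was −0.19 (adjusted P = 0.22). The term at 16 DAP was lost without replicate 1 or without replicate 2 of every genotype (−0.55 to −0.51 over the 4 such fits). The small calls in *nkd1 nkd2 o2* against WT, log2FC 0.27 at 8 DAP and 0.26 at 16 DAP, were lost without any one of the libraries compared except WT replicate 4 (0.23 to 0.32), and without any one of the triple mutant's replicates 1 to 3 and WT replicates 2 and 3 (0.21 to 0.34).

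*nac130* showed the largest fall of the 5 genes, at 12 DAP in the genotypes with mutant *nkd* alleles. At 12 DAP it was at 189, 227, 291 and 325 CPM in *nkd1 nkd2 o2* and 351, 312, 301 and 289 CPM in *nkd1 nkd2*, against 901, 967, 946 and 982 CPM in WT. The fall was 3.72-fold in the triple mutant (log2FC −1.90, SE 0.17, adjusted P = 3.15e-10) and 3.04-fold in *nkd1 nkd2* (log2FC −1.60, SE 0.17, adjusted P = 3.9e-08). The *o2* single mutant, at 1014, 908, 957 and 1008 CPM, overlapped WT (log2FC 0.06, SE 0.16, adjusted P = 0.827). The estimate ± 2 SE runs from −0.27 to 0.38 on the log2 scale.

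*nac130* was also lower at 12 DAP in each *nkd* single mutant. It was at 467, 591, 687 and 676 CPM in *nkd1* and 406, 426, 529 and 553 CPM in *nkd2*, all below the lowest WT library at 901 CPM. The falls were log2FC −0.65 (adjusted P = 0.0201) and −0.98 (adjusted P = 0.000366). The second held in every alternative, while the first was lost without *nkd1* replicate 1 (adjusted P up to 0.0736), *nkd1* replicate 2, or WT replicate 2, with log2FC −0.72 to −0.54 over the 8 fits that left out one library. With mutant *o2* the values were 599.6, 493, 434 and 334 CPM in *nkd1 o2* and 378, 446, 477 and 589.6 CPM in *nkd2 o2*. Against *o2*, these were falls of log2FC −1.07 and −1.05, and the triple mutant fell by −1.95, all in every alternative. The double mutant *nkd1 nkd2* was below each single mutant (log2FC −0.95 against *nkd1* and −0.63 against *nkd2*). The interaction of *nkd1* with *nkd2* at 12 DAP was 0.02 on the log2 scale, with an SE of 0.18, so no departure from the sum of the 2 single-mutant falls was called (estimate ± 2 SE from −0.34 to 0.38).

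The difference narrowed by 16 DAP. *nac130* was at 431, 405, 599 and 506 CPM in the triple mutant and 593, 545, 631 and 651 CPM in *nkd1 nkd2*, against 1023, 1013, 1014 and 684 CPM in WT. The falls were log2FC −0.96 (adjusted P = 0.000104) and −0.61 (adjusted P = 0.0128), and both were lost with total-count scaling (−0.23 and −0.28). The second was also lost without replicate 1 or 2 of every genotype (adjusted P up to 0.0983). Between 8 and 12 DAP *nac130* had risen by log2FC 1.12 in the triple mutant and 1.94 in *nkd1 nkd2*, against 3.51 in WT, differences of −2.38 and −1.56 that held in every alternative. Between 12 and 16 DAP it rose further in these 2 genotypes, by 0.91 and 0.95, against −0.02 in WT. The difference of these later changes was called (0.94 in the triple mutant, adjusted P = 0.00668, and 0.97 in *nkd1 nkd2*, adjusted P = 0.0145), but the first was lost without replicate 3 of every group (adjusted P = 0.0505) and the second without replicate 2, 3, or 4 (adjusted P up to 0.0998). At 16 DAP 3 libraries stood apart from their groups: *nkd1* replicate 3 at 919 CPM against 566 to 626 CPM in the other 3, *nkd2* replicate 4 at 1078 CPM against 564 to 592 CPM, and WT replicate 4 at 684 CPM against 1013 to 1023 CPM. Without *nkd2* replicate 4 the log2FC in *nkd2* at 16 DAP was −0.69 (adjusted P = 0.00774), against −0.41 (adjusted P = 0.158) with it. The value in *nkd1 o2* (log2FC −0.38, adjusted P = 0.105) was called without *nkd1 o2* replicate 3 or WT replicate 4 (log2FC down to −0.54).

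*nac128*, the paralog of *nac130*, was best marked by an early rise. At 8 DAP it was at 412, 454, 415 and 378 CPM in *o2* and 239, 234, 321 and 364 CPM in *nkd1*, against 79.0, 94.3, 109 and 136 CPM in WT, with no overlap. The rise was 3.69-fold in *o2* (log2FC 1.88, SE 0.21, adjusted P = 2.43e-07) and 2.64-fold in *nkd1* (log2FC 1.40, SE 0.21, adjusted P = 7.23e-05), and both held in every alternative. The rises of *nkd1* and *o2* did not add up in *nkd1 o2*, which was at 171, 84.5, 185 and 187 CPM (log2FC 0.52, adjusted P = 0.0743). Without its replicate 2, or without WT replicate 4, that value was called (log2FC up to 0.72). The interaction of *nkd1* with *o2* was −2.74 on the log2 scale (adjusted P = 6.37e-05). The interactions of *nkd1* with *nkd2* (−2.06) and of *nkd2* with *o2* (−1.71) were also negative, and all 3 held in every alternative. These terms share the same WT libraries. *nac130* also had a negative *nkd1* by *o2* term at 8 DAP (−1.98, adjusted P = 4.14e-05).

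After 8 DAP *nac128* rose less in *o2* than in WT. Between 8 and 12 DAP its rise was log2FC 0.65 in *o2*, against 2.998 in WT, a difference of −2.34 (adjusted P = 1.85e-11). By 16 DAP it was at 408, 532, 559 and 452 CPM in *o2*, below all WT libraries at 782, 782, 793 and 630.0 CPM (log2FC −0.63, SE 0.16, adjusted P = 0.00346). This fall was lost without replicate 1 of every genotype (adjusted P = 0.0707) and with total-count scaling (−0.20). At 16 DAP *nac128* was higher in *nkd1 o2* than in *o2*, at 942, 1023, 1129 and 989 CPM, a 2.103-fold difference (log2FC 1.07, SE 0.17, adjusted P = 1.62e-05) that held in every alternative. The corresponding value for *nkd2 o2* over *o2* was not called, at 0.25 (adjusted P = 0.344). In *nkd1 nkd2* at 12 DAP the fall (log2FC −0.46, adjusted P = 0.00362) was lost without replicate 2 of every genotype (adjusted P = 0.0658) and with total-count scaling (−0.11). The fall in *o2* at 12 DAP (log2FC −0.33, adjusted P = 0.0352) was lost when any one of *o2* replicates 1, 2, and 4 and WT replicates 1 and 2 was left out (log2FC −0.36 to −0.29). Against WT, *nkd1 o2* rose at 16 DAP (log2FC 0.44, adjusted P = 0.0308), a call lost without *nkd1 o2* replicate 2 or 3 or WT replicate 4 (0.37 to 0.48).

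The 2 NAC genes moved apart, and this could be read inside each library without any scaling. The ratio of *nac130* reads to *nac128* reads was taken after these values had been seen, and it compares genotypes only, since the genes differ in length. At 8 DAP it was 0.480 ± 0.0646 in *nkd1*, 0.486 ± 0.0368 in *nkd2*, 0.492 ± 0.0212 in *o2*, 0.521 ± 0.143 in *nkd1 o2*, and 0.669 ± 0.0290 in *nkd1 nkd2 o2*, each lower than the 0.797 ± 0.0811 of WT (SD, n = 4 each). At 12 DAP it was 0.298, 0.338, 0.388 and 0.370 in *nkd1 nkd2 o2* and 0.538, 0.543, 0.480 and 0.493 in *nkd1 nkd2*, against 1.01, 1.11, 1.20 and 1.24 in WT. In *o2* at 12 DAP it was higher than in WT, the opposite of 8 DAP, at 1.56, 1.52, 1.39 and 1.497, whereas *nkd1 o2* (0.548 ± 0.0812) and *nkd2 o2* (0.583 ± 0.0531) were lower (SD, n = 4 each). At 16 DAP the ratio was 0.746 ± 0.0239 in *nkd1*, 0.701 ± 0.0962 in *nkd1 o2*, 0.691 ± 0.0819 in *nkd1 nkd2*, and 0.751 ± 0.0728 in *nkd1 nkd2 o2*, against 1.24 ± 0.105 in WT. The 4 genotypes with mutant *nkd1* thus stayed low at 16 DAP. So did *nkd2*, at 0.856 ± 0.0590 with all its libraries below those of WT, whereas *nkd2 o2* (1.42 ± 0.206) overlapped WT. Of 21 comparisons with WT, 16 had an adjusted P of 0.0375 by an exact two-sided permutation test of the log2 ratio (raw P = 0.0286, the smallest that 4 libraries against 4 allow). The other 5 were *nkd1* at 12 DAP (adjusted P = 0.0706, exact permutation test), *nkd2 o2* and *nkd1 nkd2* at 8 DAP, and *o2* and *nkd2 o2* at 16 DAP. The values of both paralogs are uncertain where reads fit either gene, and how such reads were counted is not given in the sources used here.

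**Figure D3:**
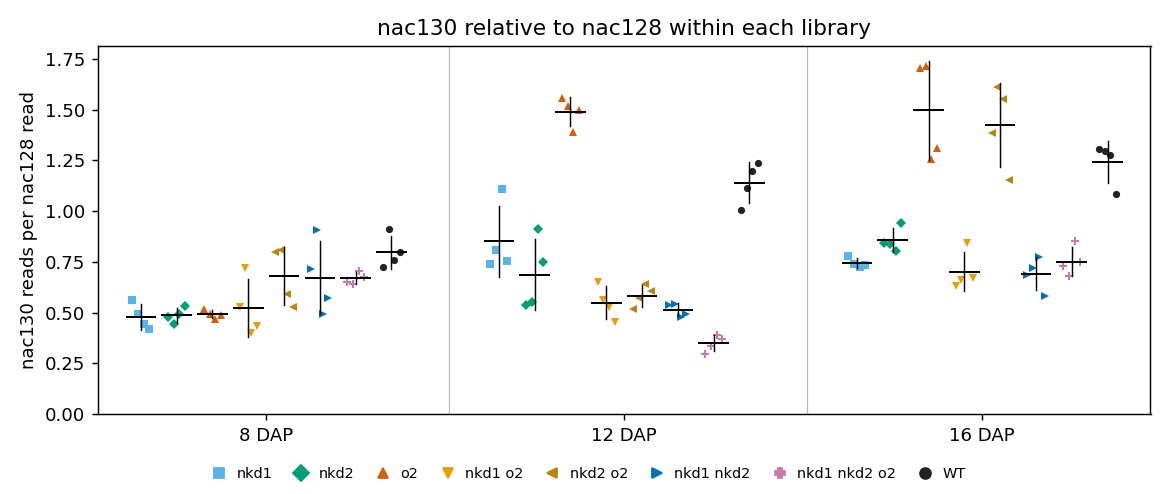
Reads counted on *nac130* per read counted on *nac128* (vertical axis, starting at 0) in each of the 96 libraries, by timepoint and genotype with WT at the right of each timepoint. Points are libraries, horizontal bars group means, and vertical bars ± SD (n = 4). At 12 DAP the 4 libraries of *nkd1 nkd2 o2* lie between 0.298 and 0.388, those of *o2* between 1.39 and 1.56, and those of WT between 1.01 and 1.24.

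*o11*, the bHLH gene, had the smallest range of the 5 genes, and its falls at 16 DAP were in *o2* and *nkd1 nkd2*. At 16 DAP it was at 152, 128, 131 and 128 CPM in *o2* and 127, 141, 146 and 124 CPM in *nkd1 nkd2*, against 167, 188, 197 and 178 CPM in WT. Both groups lay below all WT libraries, with log2FC −0.45 (adjusted P = 0.000406) and −0.43 (adjusted P = 0.000823). In the triple mutant it was at 176, 147, 181 and 179.9 CPM and overlapped WT (log2FC −0.11, SE 0.09, adjusted P = 0.334). The interaction of the *nkd1 nkd2* pair with *o2* was positive at 12 DAP (0.59, adjusted P = 0.000934) and at 16 DAP (0.77, adjusted P = 0.000265), in every alternative. Scaled by total counts alone, these values against WT were −0.028 and −0.087 and were not called, while the interaction terms were kept. At 12 DAP *o11* also fell in *nkd2* (log2FC −0.45, adjusted P = 0.00918), a call lost without replicate 2 of every genotype (adjusted P = 0.0643) and in a fit of the 2 genotypes alone, and in *nkd1 nkd2* (log2FC −0.40, adjusted P = 0.0057), which was lost without replicate 4 of every genotype (adjusted P = 0.0877) and with total-count scaling. At 8 DAP it rose in *nkd1 nkd2 o2*, to 161 ± 9.44 CPM against 107 ± 16.5 CPM in WT (log2FC 0.50, SE 0.10, adjusted P = 0.000278), in every alternative.

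*bzip22* had its highest level in the triple mutant at 12 DAP. It was at 35.6, 35.0, 37.1 and 40.6 CPM in *nkd1 nkd2 o2*, against 27.5, 27.2, 23.3 and 24.3 CPM in WT, and no other library at that timepoint exceeded 34.0 CPM. The rise was 1.43-fold over WT (log2FC 0.52, SE 0.10, adjusted P = 0.000103), and the triple mutant was also above *o2* (0.39) and *nkd1 nkd2* (0.47). At 16 DAP the triple mutant stayed above WT (log2FC 0.41, SE 0.11, adjusted P = 0.0027), and these calls held in every alternative. *nkd2* went the other way at 16 DAP, at 16.5, 12.6, 16.0 and 14.5 CPM, below all WT libraries at 21.1, 22.5, 19.5 and 20.7 CPM (log2FC −0.49, SE 0.11, adjusted P = 0.00343). That fall was lost without replicate 2 of every genotype (adjusted P = 0.0828). It was not seen when *nkd1* was mutant as well: *nkd1 nkd2* was at 25.9, 23.6, 22.2 and 31.3 CPM, 1.75-fold above *nkd2* (log2FC 0.80, SE 0.11, adjusted P = 2.16e-06). However, the interaction of *nkd1* with *nkd2* at 16 DAP was not called (0.40, adjusted P = 0.0911). The smaller rises at 16 DAP in *nkd1* (log2FC 0.40, adjusted P = 0.0488) and *nkd1 nkd2* (log2FC 0.31, adjusted P = 0.0273) were lost without any one of the libraries compared except *nkd1* replicate 2 (0.36 to 0.45), and without *nkd1 nkd2* replicate 1 or 4 or WT replicate 3 (0.21 to 0.38). The rise in *nkd1 o2* at 12 DAP (log2FC 0.33, adjusted P = 0.0151) was lost without *nkd1 o2* replicate 2 or WT replicate 3 (0.28 to 0.36).

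At 8 DAP, before the main rise of the 5 genes, the *o2* single mutant stood apart. It had the highest mean of the 8 genotypes for *pbf1*, *nac128*, *nac130*, and *bzip22*, and *bzip22* was at 23.54, 25.9, 24.2 and 24.3 CPM in *o2*, against 13.52, 14.96, 12.5 and 17.7 CPM in WT (log2FC 0.63, SE 0.11, adjusted P = 7.37e-05). These 4 genes were lower where *nkd1*, or both NKD genes, were mutant as well, and 2 of them where *nkd2* was. In *nkd2 o2* against *o2*, *nac128* (−0.87) and *bzip22* (−0.55) fell. *pbf1* (−0.21, adjusted P = 0.142) and *nac130* (−0.43, adjusted P = 0.0701) were not called there. Against *o2*, *nkd1 o2* fell in *pbf1* (−0.40), *nac128* (−1.37), *nac130* (−1.38), and *bzip22* (−0.44). Against *o2*, *nkd1 nkd2 o2* fell in *pbf1* (−0.51), *nac128* (−1.21), *nac130* (−0.77), and *bzip22* (−0.48), each in every alternative, and *o11* rose (0.37). The 5 rises in *nkd1* ran from 0.33 for *pbf1* to 1.40 for *nac128*. Leaving out single libraries ended those of *pbf1* (*nkd1* replicates 2 and 4 and WT replicates 1 to 3, log2FC 0.27 to 0.39), *nac130* (WT replicate 1, 0.50 to 0.77), and *bzip22* (*nkd1* replicates 3 and 4 and WT replicates 1 and 3, 0.29 to 0.43). It also ended the rises of *o11* in *nkd2 o2* (WT replicates 1 and 3, 0.32 to 0.44) and in *nkd1 nkd2* (replicates 2 to 4 of *nkd1 nkd2* and 1 to 3 of WT, 0.22 to 0.39). Of the 19 rises against WT at this timepoint, 6 held in every alternative: the 4 in *o2*, *nac128* in *nkd1*, and *o11* in the triple mutant. In fits of only the 2 genotypes compared 11 values were called, and without replicate 1 or replicate 3 of every genotype 11 and 9 were. The median of all genes in *o2* against WT was −0.11 on the log2 scale, so relative to it the 4 rises are slightly larger. WT itself had the lowest mean of the 8 genotypes for *pbf1*, *nac128*, and *o11* at this timepoint, and all these rises were measured against it. Levels of other genes also differed at 8 DAP. The *o2* transcript was at 90.4 to 119 CPM in *nkd1* and 51.1 to 90.5 CPM in *nkd2*, against 15.1 to 30.7 CPM in WT. The 13 zein genes summed to 316 to 1391 CPM in *nkd1* and 13.9 to 116 CPM in *o2*, against 113 to 278 CPM in WT. The part of these differences in the rises of the regulators was not tested.

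The 5 regulators changed far less than the 13 zein genes, but the zein genes had been selected for change. The 13 zein genes at 12 DAP summed to 2.55 ± 2.19 CPM in *nkd1 nkd2 o2* and 191 ± 158 CPM in *o2*, against 89153 ± 24439 CPM in WT (SD, n = 4 each). In *nkd1 o2*, *nkd2 o2*, and *nkd1 nkd2* the sums were 43.2, 343, and 24549 CPM. In *o2* at 12 DAP, 12 of the 13 fell and none rose, with a median log2FC of −10.2 against 0.01 over all genes tested, and 3 of them had no read in any *o2* library. Over the same comparison the changes of the 5 regulators ran from −0.33 to 0.86. In the triple mutant all 13 fell at 12 DAP, with a median of −15.5 when the 2 genes without a read were set to a floor of 3 counts over the group. These zein genes are those named in the study's module tables, and the modules were built from DEGs of the same samples. A log2FC beyond ±1 in some mutant was thus a condition for the zein genes but not for the regulators. The direction of their fall is therefore not independent evidence, and the gap in size to the regulators cannot be separated from this selection. By 16 DAP the sum in *o2* was 34254 ± 2126 CPM, that in the triple mutant 187 ± 337 CPM, and that in WT 205126 ± 7828 CPM. Over the 24 group means, Pearson's r of log2 CPM with the log2 zein sum was 0.65 for *nac130*, 0.55 for *nac128*, 0.43 for *pbf1*, 0.13 for *bzip22*, and 0.085 for *o11*, a description of groups that share timepoints and genotypes. Within 12 DAP, *nac130* was not called between *nkd1 nkd2 o2* and *nkd1 nkd2* (log2FC −0.29, adjusted P = 0.206), whose zein sums lay far apart, and *pbf1* was high in *o2*, *nkd1 o2*, and *nkd2 o2*, where the zein sum was low.

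**Figure D4:**
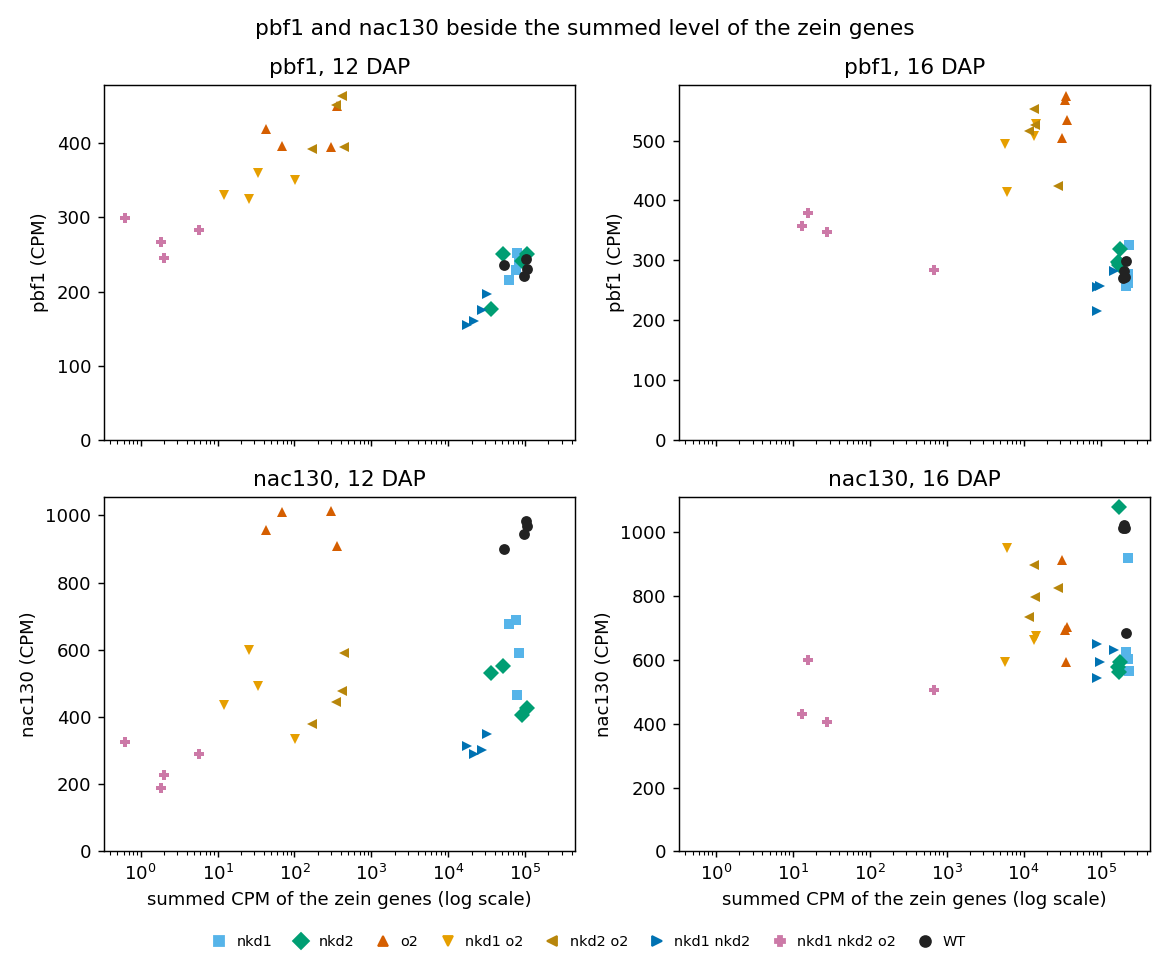
CPM of *pbf1* (upper panels) and *nac130* (lower panels) on vertical axes that start at 0, against the summed CPM of 13 zein genes on a log scale, in the 32 libraries of 12 DAP (left) and the 32 of 16 DAP (right), with one symbol per genotype. At 12 DAP the *o2* libraries have 395 to 450.5 CPM of *pbf1* at zein sums of 42.8 to 356 CPM, against 221 to 244 CPM of *pbf1* at zein sums of 53026 to 105266 CPM in WT.

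The regulators *gbf1*, *bzip17*, and *mybr13* had larger falls in *o2* at 12 DAP, but they had been selected for change. The study named them as hub genes of coexpression modules built from DEGs of the same samples. It also lists *gbf1* and *bzip17* as potential targets of O2, and *mybr13* of NKD2, from binding data. The direction of their falls is not independent evidence, and the gap in size to the 5 regulators cannot be separated from this selection. At 12 DAP in *o2*, the bZIP genes *gbf1* and *bzip17* fell by log2FC −3.30 and −5.59, and the MYB-related gene *mybr13* fell by −3.61. In the triple mutant the values were −3.16, −7.48, and −3.23. The 2 genes of pyruvate orthophosphate dikinase, an enzyme of endosperm carbon metabolism, also fell in *o2* at 12 DAP, *pdk1* by −3.27 and *pdk2* by −1.01. In *nkd1 nkd2* at 12 DAP, *gbf1* (0.08) and *bzip17* (−0.31) were not called, *mybr13* fell (−0.95), *pdk1* rose (0.35), and *pdk2* fell (−0.53). Counting the 3 mutated genes, the list of 6 other regulators had 5 falls and 1 rise in *o2* at 12 DAP, with a median log2FC of −3.45, and *nkd1* was the one that rose. That median includes *o2* itself.

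Among themselves *pbf1*, *nac128*, and *nac130* were most alike over the timepoints and genotypes, and with *bzip22* they also shared their order among the genotypes at 8 DAP. *o11* was less alike, with timepoint holding 24.3% of its variance and an r of 0.52 to 0.64 with the other 4 genes. Over the 24 group means of log2 CPM, Pearson's r was 0.91 for *nac128* with *nac130*, 0.90 for *pbf1* with *nac130*, and 0.85 for *pbf1* with *nac128*, and the lowest of the 10 pairs was *o11* with *bzip22* at 0.52. Across the 8 genotypes of 8 DAP the r among *pbf1*, *nac128*, *nac130*, and *bzip22* ran from 0.76 to 0.91, and that of *o11* with these 4 from 0.19 to 0.38. The r of *nac128* with *nac130*, 0.91 at 8 DAP, was 0.20 at 12 DAP and −0.08 at 16 DAP, and over the 10 pairs r ran from −0.50 to 0.76 at 12 DAP and from −0.52 to 0.44 at 16 DAP. Between ears of the same group the picture differed: over the deviations of the 96 libraries from their group means, *nac128* and *nac130* had an r of 0.69, whereas *pbf1* and *nac130* had −0.02. The libraries *nkd1* replicate 3 and *nkd2* replicate 4 at 16 DAP, the highest of their groups for *nac128*, were also the highest for *nac130*. These values describe the libraries, which share timepoints and genotypes, and carry no test. Among the 13590 genes with a mean of at least 5 CPM, the 3 whose 24 group means were most like *pbf1* were Zm00001d028568 (r = 0.99), Zm00001d009431 (0.98), and Zm00001d022125 (0.98). For *nac128* they were Zm00001d045261 (0.98), Zm00001d037234 (0.98), and Zm00001d017106 (0.97), and for *nac130* they were Zm00001d013620 (0.97), Zm00001d013012 (0.97), and Zm00001d034523 (0.97). For *bzip22* they were Zm00001d037725 (0.94), Zm00001d042530 (0.93), and Zm00001d035052 (0.91). The pattern of *o11* had no such close match, with 0.81 for Zm00001d050575, 0.80 for Zm00001d020019, and 0.80 for Zm00001d043984. The study's tables used here name none of these identifiers. In the planned list of starch genes, Zm00001d045261 stood as *ss1* and Zm00001d037234 as *su2*, pairings that could not be checked here.

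The order of the 8 genotypes was resolved only in part. Of the 7 steps between neighbouring genotypes, ordered by mean, at most 2 were free of overlap between the libraries at any timepoint, in each of the 5 genes. For *pbf1* at 12 DAP these lay between *nkd1 nkd2 o2* and *nkd1 o2* and between *nkd1 o2* and *o2*, and for *nac130* at 12 DAP the single step lay between *nkd1* and WT. At 16 DAP the one step for *pbf1* lay between *nkd1 nkd2 o2* and *nkd1 o2*, and the one for *bzip22* between *nkd2* and WT.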

How the data were processed

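RNA-seq was made from 96 libraries of immature endosperm, 24 groups of 4, as 150-base paired-end reads. The authors mapped the reads with HISAT2 2.1.0 to B73 RefGen_v4 and deposited raw read counts per gene made with HTSeq 0.11.1, and the submitters' processing notes also list SAMtools 1.9 and StringTie 1.3.6. The counting mode, strand setting, and annotation release are not given in the sources used here. Reads came from W22 and genes from B73, so sequence differences between the inbreds may lower a gene's count. Where chromosome segments linked to a mutant allele travel with it, such a loss need not be alike in every genotype. Reads not counted on a gene (13.4% to 29.0%, median 15.8%) were left out. No 2 libraries were identical.

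Counts were analyzed with edgeR 4.0.16 in R 4.3.3 (limma 3.58.1): filterByExpr, TMM, and the quasi-likelihood test, with P adjusted by the Benjamini-Hochberg method over the 25467, 24504, and 24239 genes tested at 8, 12, and 16 DAP. Mutants were compared with WT and with each other in one fit of the 32 libraries of a timepoint, interactions in the 16 libraries of the 4 genotypes involved, and timepoints in one fit of all 96 libraries (27328 genes). SE is the absolute log2FC divided by the square root of F. Levels used a prior count of 2 for log2 CPM. Exact permutation tests and plots used Python 3.11.15 with matplotlib 3.10.9, pandas 2.3.3, scipy 1.17.1, and numpy 2.4.6. The test scripts were tested on simulated data. Alternatives were DESeq2 1.42.0 in place of edgeR, DESeq2 size factors, total counts alone, no low-count filter, other sets of libraries in the fit, a replicate block, and leaving out replicates or single libraries. The DEG rule was run as a stricter call and is counted apart. The *nac130* to *nac128* ratio was added after the data had been seen.

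The genes named are the 5 regulators, the 3 mutated genes, the listed genes of the study, and for each regulator the 3 genes with the most similar group means. Regulators and lists were chosen with earlier results of these data known. Identifiers could be paired with names for 21 listed genes, which the study names. A planned part of the lists was not used, because no name could be paired: *ohp1*, *ohp2*, *mads47*, *iddp10*, *fl3*, *vp1*, *gras11*, most starch genes, other zeins, and markers of other cell types. The RefSeq table given for maize matched 0 of the identifiers, so no position or sequence is shown.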

Additional observations from a re-analysis of the deposited data

Results flagged for a closer look

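Of 120 groups of 4 libraries (5 genes, 24 groups), 16 held one library far from the other 3, where chance flags about 1 group in 20. For *pbf1* these were the lowest *nkd2* library at 12 DAP (177 CPM) and the highest *nkd2* library at 16 DAP (318 CPM). For *nac128* they were the lowest library of *nkd1 o2* at 8 DAP (84.5 CPM), the lowest of *nkd2* at 12 DAP (582 CPM), the highest of *nkd1* and of *nkd2* at 16 DAP (1265 and 1146 CPM), and the lowest of WT at 16 DAP (630.0 CPM). For *nac130* they were the highest of *nkd1* and of *nkd2* at 16 DAP (919 and 1078 CPM) and the lowest of WT at 16 DAP (684 CPM). The 3 libraries of 16 DAP that stood apart for *nac130* were the same that stood apart for *nac128*: *nkd1* replicate 3, *nkd2* replicate 4, and WT replicate 4. For *o11* they were the lowest of *nkd1 o2* at 8 DAP (105 CPM), the highest of *o2* at 16 DAP (152 CPM), and the lowest of *nkd1 nkd2 o2* at 16 DAP (147 CPM). For *bzip22* they were the lowest of *o2* and of *nkd2 o2* at 12 DAP (23.51 and 24.7 CPM) and the highest of *nkd1 nkd2 o2* at 16 DAP (31.9 CPM).

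The effect of one mutation differed with the other present in 24 of 60 interaction tests at an adjusted P under 0.05, of which 12 held in every alternative. The tests of a timepoint share its WT libraries, and those with *o2* share the *o2* libraries as well, so they are not independent. All 12 called terms at 8 DAP were negative on the log2 scale, meaning a combined change below the sum of the separate ones. They were 4 of the 5 genes for *nkd1* by *o2* (11.8% of all genes had a called negative term), 3 for *nkd1* by *nkd2* (11.3%), 3 for *nkd2* by *o2* (14.0%), and 2 for *nkd1 nkd2* by *o2* (7.64%). For *nac128* at 8 DAP they were −2.74 (*nkd1* by *o2*), −2.06 (*nkd1* by *nkd2*), −1.71 (*nkd2* by *o2*), and −1.40 (*nkd1 nkd2* by *o2*). For *pbf1* they were −0.69, −0.51, −0.47, and −0.60 in the same order. For *bzip22* they were −0.76, −0.83, and −0.71 for the first 3 pairs, and for *nac130* the *nkd1* by *o2* term was −1.98. At 12 DAP the called terms were positive, 3 for *nkd1 nkd2* by *o2* (11.3% of all genes), 1 for *nkd1* by *o2* (7.18%), and 2 for *nkd2* by *o2* (5.14%). They were 0.59, 0.57, and 0.54 for *nac128* (*nkd1 nkd2*, *nkd1*, and *nkd2* by *o2*), 0.59 and 0.51 for *o11* (*nkd1 nkd2* and *nkd2* by *o2*), and 0.34 for *bzip22* (*nkd1 nkd2* by *o2*). At 16 DAP 1 term was positive and 1 negative for *nkd1 nkd2* by *o2* (10.5% and 13.0%), 2 were positive for *nkd1* by *o2* (10.1%), and 2 for *nkd2* by *o2* (11.2%). *o11* had 0.77, 0.46, and 0.36 (*nkd1 nkd2*, *nkd1*, and *nkd2* by *o2*), *nac128* had 0.79 (*nkd1* by *o2*), *bzip22* had 0.47 (*nkd2* by *o2*), and *pbf1* had −0.54 (*nkd1 nkd2* by *o2*).

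The change over time differed from that of WT in 12 of 30 tests, which share the WT libraries, and 5 of the 12 held in every alternative. Between 8 and 12 DAP 4 of the 5 genes differed downward in *nkd1 nkd2* (9.13% of all genes), 3 in *nkd1 nkd2 o2* (17.8%), and 3 in *o2* (14.8%), and between 12 and 16 DAP 1 differed upward in *nkd1 nkd2* (3.10%) and 1 in *nkd1 nkd2 o2* (9.57%). Between 8 and 12 DAP *nac130* differed by −2.38 in the triple mutant, −1.56 in *nkd1 nkd2*, and −1.25 in *o2*, against a rise of 3.51 in WT. *nac128* differed by −2.34 in *o2*, −0.68 in *nkd1 nkd2*, and −0.95 in the triple mutant. *o11* differed by −0.72 in *nkd1 nkd2* and −0.49 in *nkd1 nkd2 o2*, *pbf1* by −0.57 in *nkd1 nkd2*, and *bzip22* by −0.63 in *o2*. Between 12 and 16 DAP *nac130* differed by 0.97 in *nkd1 nkd2* and 0.94 in *nkd1 nkd2 o2*.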

How the results depend on the processing

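Called against WT were 19, 16, and 14 of 35 values at 8, 12, and 16 DAP, and 4, 3, and 0 under the DEG rule. DESeq2 called 22, 17, and 14, and edgeR at an unadjusted P under 0.05 gave 24, 18, and 18. In fits of only the 2 genotypes compared 11 were called at 8 DAP, where fewer libraries estimate the spread. Without one replicate of every genotype the counts ran from 9 to 19 at 8 DAP, from 12 to 16 at 12 DAP, and from 8 to 15 at 16 DAP. For a further mutation they ran from 13 to 16 at 8 DAP (18 with all), from 12 to 13 at 12 DAP (15), and from 7 to 11 at 16 DAP (12). For interactions they ran from 10 to 13 at 8 DAP (12), from 2 to 4 at 12 DAP (6), and from 1 to 7 at 16 DAP (6). For timepoints they were 47 to 51 (53), and for the difference in time from WT 9 to 11 (12). These fits also hold fewer libraries. Scaling by total counts alone reversed 18 values that were called in one of the 2 settings, and the cause was not tested beyond the shift of the median of all genes given above. Over time these were *o11* 12 against 8 DAP in *nkd1*, *nkd2*, and WT (−0.38, −0.27, and −0.0044), *o11* and *pbf1* 16 against 12 DAP in *nkd1* (−0.33 and −0.16), and, less WT and 12 against 8 DAP, *pbf1* in *o2* (0.51) and *nkd1 nkd2 o2* (0.45) and *o11* in *nkd1 nkd2 o2* (0.0797). For *nkd1 nkd2* against *nkd1* at 16 DAP they were *bzip22* (0.32), *nac128* (0.39), *o11* (0.0235), and *pbf1* (0.27). Against WT they were *nac128* and *o11* in *nkd2 o2* at 12 DAP (0.30 and 0.27) and, at 16 DAP, *nac128* in *nkd1 nkd2 o2* (0.50) and *o11* in *nkd1 nkd2 o2* (0.63), *nkd1 o2* (0.53), and *nkd2 o2* (0.24). With total counts 60.0% and 92.3% of the calls for a further mutation were higher at 12 and 16 DAP, against 33.3% and 58.3% with TMM, for timepoints 67.9% against 90.6%, for the difference in time from WT 61.5% against 16.7%, and for interactions 50.0% at 12 DAP, where all were higher with TMM, and 66.7% against 83.3% at 16 DAP. No other setting reversed a called value. Among 4394 values of single genes under the alternatives, 131 uncalled ones changed sign. The replicate numbers pair no libraries by the labels, and none of 21 mutant and WT group pairs had 4 same-numbered libraries that deviated together (r over 0.1). Single same-numbered libraries did at 8 and 12 DAP, with r from −0.429 in *nkd1 nkd2 o2* to 0.315 in *nkd1 nkd2*, both at 8 DAP. At 8 DAP *nkd1* and *o2* each had 2 such pairs with WT. Whether some same-numbered libraries shared a batch was not tested. With a replicate block the counts against WT were 19, 16, and 13, those for a further mutation 18, 15, and 12, those for interactions 13, 6, and 4, and those over time 54 and 12.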
